A study of Bos taurus with 4 samples.

Results

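The regions described here are stretches of open chromatin that lay inside annotated genes of cattle, away from any gene start and without a CpG island. Peak intervals of the 4 libraries were merged wherever they overlapped by at least 1 bp, and a merged region was kept if each of the 4 libraries listed an interval in it, if no interval in it held a CpG island, if no summit lay within 1000 bp of an annotated gene start and if a summit lay in at least 1 gene. This left 25129 gene body regions, out of 115970 merged regions and out of 65892 regions listed by every library (shared regions). The rule used no comparison between the groups.

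Rumen epithelial primary cells (REPC) came from 1 Holstein bull calf aged 2 weeks that had received only milk replacer, and 4 ATAC-seq libraries were made in 2 pairs, 1 pair from untreated cells and the other from cells given butyrate at 5 mM for 24 h. ATAC-seq uses a transposase that inserts sequencing adapters where DNA is open, so that the signal over an interval measures accessibility. In the table the libraries of 1 pair are named Control and those of the other BT, whereas the sample titles and the treatment field give butyrate to the pair named Control. The groups are called Control-named and BT-named (n = 2 libraries each) after the table, and "higher" and "lower" always mean higher or lower in the BT-named libraries. Gains and increases mean higher signal in the BT-named libraries, losses, decreases and drops mean lower signal, and none implies an order in time. Which of the pairs received butyrate cannot be told apart from the labels, so the direction with respect to butyrate is contested, while the pairs themselves are the same under both readings. The study calls the libraries of a pair biological replicates, while no source used here says whether they came from separate cultures of the cells of that calf, so a p-value reflects how far these libraries scatter and not the spread between animals.

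Open chromatin within introns and far from promoters commonly marks enhancers, short elements that transcription factors bind and that act on promoters over a distance. Enhancers differ between cell types far more than promoters do, and most lack CpG islands, the CpG-rich stretches found at the start of widely used genes. Butyrate, a fatty acid made by rumen microbes, feeds the rumen wall and inhibits histone deacetylases, enzymes that remove acetyl groups from the histones around which DNA is wrapped.

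Each library listed between 83391 and 98962 intervals. Read totals were not used here and the depth behind each interval is unknown, so that no counting interval is given. Over the gene body regions, the log2 average signal correlated at 0.964 between the Control-named libraries, at 0.954 between the BT-named libraries and at 0.771 to 0.797 across the groups (Pearson's r across 25129 regions of the same genome, as a description). Among the listed markers of stratified epithelium, 12 of the 19 keratin and desmosome genes named in the table and 4 of the 16 transcription factors had a shared promoter region, against 2 of 11 endothelial and 3 of 14 immune cell markers. Smooth muscle markers had 6 of 10, fibroblast and mesenchyme markers 11 of 22 and simple epithelium markers 6 of 11. An open promoter does not measure RNA, and the part of other cells in the results below was not tested.

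The gene body regions were short and modest in height. A merged region spanned 462 bp at the median (quartiles 395 and 574 bp). The mean over the libraries of the average signal, the authors' mean signal over an interval, ran from 24.4 to 1828 with a median of 71.2. The median average signal was 77.6 and 83.9 in the Control-named pair and 60.1 and 60.5 in the BT-named pair, and the median signal at the summit (peak value) was 117 and 129 against 87 and 88. Both measures were thus lower in each BT-named library than in either Control-named library. The intervals were also shorter, with a median of 391 bp in both BT-named libraries and of 420 and 423 bp in the Control-named libraries, so that the bases averaged were not the same.

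Lower gene body regions outnumbered higher ones. Under the rule used throughout, a region was called when limma gave an adjusted p under 0.05 in the same direction for the values as deposited, after centring each library on its median and after quantile normalization. By average signal 6691 members (26.6%) were lower, 1482 (5.90%) were higher and 16956 were not called. Among all 65892 shared regions the same rule called 20.0% lower and 6.89% higher. By peak value 7001 were lower and 1497 higher, against 21.2% and 6.79% of all shared regions. Both measures called 6307 members lower and 1316 higher, against 18.8% and 5.91% of all shared regions. By average signal as deposited, both BT-named libraries lay below both Control-named libraries in 15408 members and above them in 3449, against 54.4% and 15.9% of all shared regions.

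In the Control-named libraries, regions called lower were among the taller ones. In the BT-named libraries they stood near the height of the members not called. Their median average signal was 120.4 and 126.9 in the Control-named pair and 56.9 and 56.4 in the BT-named pair, while that of the members not called was 65.9 and 71.7 against 59.9 and 60.7. Regions called higher were low in the Control-named pair, at 42.8 and 46.8, and had 71.2 and 72.5 in the BT-named pair. The median log2 difference was -0.995 among those lower and 0.58 among those higher, which describes regions chosen by that difference. Their median distances into the gene, 42605 bp and 40837 bp, were close to the 36924 bp of the members not called.

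**Figure D1:**
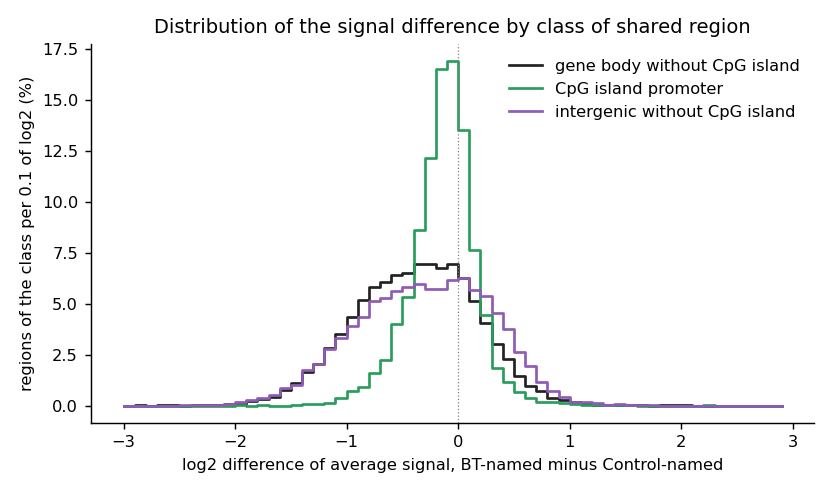
Distribution of the log2 difference of average signal, BT-named minus Control-named, for shared regions of 3 classes (x axis, bins of 0.1; y axis, percent of the regions of that class). Gene body regions centred on -0.36 and intergenic regions on -0.29 with wide spreads, and promoters with a CpG island on -0.12 with a narrow one.

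How many differences point up or down depends on the scale. The median log2 difference of the members was -0.36 as deposited, -0.00 after median centring and -0.08 after quantile normalization, while over all shared regions it was -0.24, 0.13 and 0.05. As deposited, 12080 members (48.1%) were lower and 1483 (5.90%) higher, against 39.4% and 6.90% of all shared regions. Of the members' calls 10.9% were higher. After centring alone 6795 were lower and 5847 higher (46.3% of calls higher, with 20.4% and 30.2% of all shared regions called), and after quantile normalization alone 7552 and 4457 (37.1%, with 22.7% and 23.3%). Under each of these the members held a larger share of lower calls and a smaller share of higher calls than the shared regions did as a whole.

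A comparison with other classes in the same library does not depend on a common factor between libraries. Relative to promoters with a CpG island, the median log2 signal of the members stood at -0.86 and -0.90 in the Control-named pair and at -1.15 and -1.19 in the BT-named pair, a further drop of 0.29. Relative to all other shared regions the values were -0.22 and -0.25 against -0.33 and -0.35. The groups did not overlap for either quantity, and the exact permutation test (two-sided) gave p = 0.33, the smallest that 2 libraries against 2 allow, so that no such comparison can pass 0.05. Relative to intergenic regions without a CpG island, the members lay higher by 0.15 and 0.16 in the Control-named pair and by 0.07 and 0.06 in the BT-named pair (exact permutation p = 0.33).

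Members had the largest share of lower calls over all heights, and CpG island promoters the smallest. Of the 9646 CpG island promoters, 3.39% were lower and 3.47% higher, and of the 2515 promoters without a CpG island 13.8% and 7.55%. Regions with a CpG island outside promoters (5619) had 9.22% lower and 6.51% higher, and flanks of genes without a CpG island (8013) 19.7% and 8.0%. The 14970 intergenic regions came nearest to the members in lower calls, at 24.9%, and had more higher calls, at 10.2%. These shares describe the classes, whose regions differ in height and are not independent of each other. Above a mean average signal of 111, intergenic regions had 38.8% lower calls and members 38.0%, and from 71.2 to 111 both had 35.3%.

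The requirement of all 4 libraries left out many gene body regions. Of 47981 without a CpG island, 7513 (15.7%) were listed only by Control-named libraries, 2029 (4.23%) only by BT-named libraries and 13310 (27.7%) by other combinations. Those just short of the rule, the 4895 listed by 3 libraries, had a median average signal of 38.9 over the libraries that listed them, against 71.2 for the members. At the other edge of the rule, 492 shared gene regions without a CpG island with a summit 501 to 1000 bp from a gene start had a median log2 difference of -0.29, as did the 520 members within 500 bp beyond that limit.

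Signal was lower farther into the gene. Members lay from 1001 bp to 2327560 bp inside a gene, with a median of 38525 bp and quartiles of 13433 and 103155 bp. The 2393 members over 1 and up to 5 kb from the start had a median average signal of 98.0 and 107.5 in the Control-named pair and 79.1 and 79.5 in the BT-named pair. The 6459 members over 100 kb from it had 72.6 and 78.1 against 55.5 and 55.4. The step was steepest at the start, since members over 5 and up to 10 kb already stood at 79.4 and 85.7 against 62.5 and 62.9.

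The share of lower calls was larger farther into the gene, and the share of higher calls was nearly the same at each distance. From the nearest of the 6 distance ranges to the farthest, 22.6%, 25.5%, 24.9%, 27.1%, 27.8% and 28.8% of the members were lower. The share higher ran from 5.51% to 6.46%. The median log2 difference went from -0.32 within 5 kb to -0.40 beyond 100 kb as deposited, and from 0.04 to -0.04 after median centring. Within a library, the median log2 signal of the nearest range exceeded that of the farthest by 0.43 and 0.46 in the Control-named pair and by 0.50 and 0.51 in the BT-named pair. This contrast between near and far regions was larger in both BT-named libraries, by 0.07 on average (exact permutation p = 0.33, the smallest possible).

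**Figure D2:**
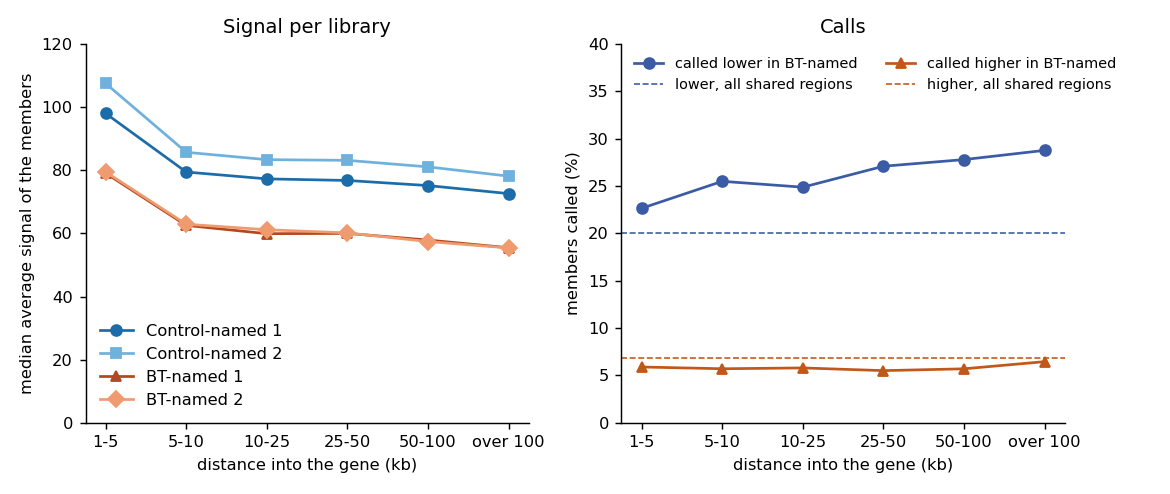
Left, median average signal of the gene body regions in each of the 4 libraries (y axis, authors' signal units) by distance into the gene (x axis, kb), with the Control-named libraries at 98.0 and 107.5 within 5 kb and at 72.6 and 78.1 beyond 100 kb. Right, percent of members called lower (circles, 22.6% to 28.8%) or higher (triangles, 5.51% to 6.46%), with the shares of all shared regions (20.0% and 6.89%) as dashed lines.

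The calls also went with height, the mean average signal over the 4 libraries. When the members were split by it into 4 classes of equal size, in the lowest class (under 49.2), 7.34% were lower and 7.99% higher, with a median log2 difference of -0.12. In the highest class (over 111), 38.0% were lower and 2.53% higher, with a median of -0.53. The rule takes only regions listed by every library, and its part in this order was not tested. CpG island promoters did not follow this order, and those above the same height had 1.71% lower calls and a median of -0.09, while intergenic regions did follow it, reaching -0.53. Within the highest class, members within 5 kb had 30.8% lower calls (median -0.41) and members beyond 100 kb 43.0% (median -0.59).

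**Figure D3:**
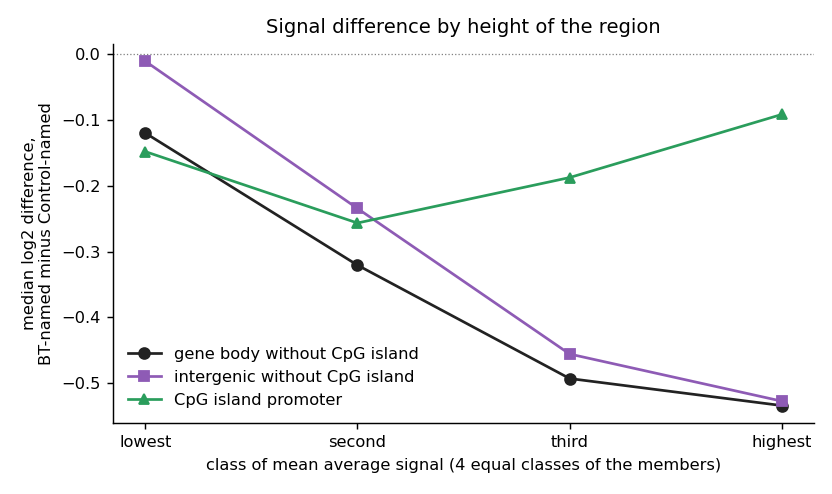
Median log2 difference of average signal, BT-named minus Control-named (y axis), in 4 classes of the mean average signal of equal size for the gene body regions (x axis). Gene body regions went from -0.12 to -0.53 and intergenic regions from -0.01 to -0.53 with height, while CpG island promoters stood at -0.15 in the lowest and -0.09 in the highest class.

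The members with the largest gains and losses are described for genes with a symbol, leaving out LOC names. The largest of these gains was in HDAC4, a class IIa histone deacetylase, 273 kb into the gene (UMD3.1 chr3:119139272-119140003). Its average signal was 37.1 and 28.7 in the Control-named pair and 125.4 and 125.1 in the BT-named pair. The groups were far apart, with means of 32.9 ± 5.95 and 125.2 ± 0.21 (SD, n = 2), a 3.81-fold difference and a log2 difference of 1.91 ± 0.19 (SE, limma adjusted p = 6.87e-18). The interval was also longer, at 696 and 722 bp against 458 and 629 bp. The other 8 members in HDAC4 did not move with it, since 3 were lower, 5 were not called and the lowest had a log2 difference of -1.05. A larger gain lay in the uncharacterized LOC104973912, with 32.5 and 37.2 against 136 and 159 (2.05 ± 0.18 SE, limma adjusted p = 1.01e-20), in a member held by 2 genes and named here after its value was seen.

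TRAF5, an adaptor of tumor necrosis factor receptors, held the next gain among genes with a symbol (chr16:73925350-73925981), with 29.1 and 27.3 against 95.5 and 112 (log2 difference 1.84 ± 0.19 SE, limma adjusted p = 5.10e-16). The tallest of the gains lay in SHKBP1, 1694 bp into the gene (chr18:50157692-50158111), with 64.8 and 61.6 against 180 and 213 (1.62 ± 0.16 SE, limma adjusted p = 3.81e-17). In GLI2, a transcription factor of Hedgehog signalling, a region 193 kb into the gene (chr2:73101414-73101899) had 34.7 and 38.8 against 107 and 106 (1.52 ± 0.19 SE). In each of these the gap between the groups was wide, while the absence of overlap was part of the choice.

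The remaining gains among the 10 largest were in MYO7B, a myosin of microvilli, INTS3, a subunit of the Integrator complex, PLBD1, TRPA1, an ion channel that senses irritants, C3, the central complement protein, and EEA1, a protein of early endosomes. Their log2 differences ran from 1.44 in EEA1 to 1.69 in MYO7B. With LOC names left out, the largest gain in the range over 5 and up to 10 kb was in GRIN2D, a subunit of NMDA receptors (1.41 ± 0.19 SE), and in that over 50 and up to 100 kb in MMD2 (1.39 ± 0.20 SE). Passing under each of the 3 scalings and a lack of overlap between the groups, by average and by peak value, were part of how these gains were chosen.

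As deposited, the 10 largest losses ran from -2.81 to -2.11 and the 10 largest gains from 1.44 to 1.91, whereas after median centring they ran from -2.45 to -1.75 and from 1.80 to 2.27. RORB, an orphan nuclear receptor, held the deepest, 145 kb into the gene (chr8:51019814-51020361). Its average signal was 210 and 218 in the Control-named pair and 28.3 and 30.9 in the BT-named pair. Means of 214 ± 5.20 and 29.6 ± 1.87 (SD, n = 2) gave a 7.23-fold lower signal and a log2 difference of -2.81 ± 0.17 (SE, limma adjusted p = 2.20e-33). The interval was 542 and 548 bp long in the Control-named pair and 272 and 297 bp in the BT-named pair.

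In BOC, a cell surface co-receptor of Hedgehog ligands, a region 58.0 kb into the gene (chr1:58441727-58442431) had 221 and 207 against 28.3 and 38.9, a log2 difference of -2.65 ± 0.17 (SE). IL17RD, an inhibitor of fibroblast growth factor signalling, had 250.4 and 231 against 39.4 and 42.2 (chr22:44497712-44498367, -2.53 ± 0.17 SE). RSPO2, a secreted enhancer of Wnt signalling, had 187 and 178 against 36.5 and 44.1 (chr14:58574941-58575538, -2.16 ± 0.17 SE). In all of them the lowest Control-named library was several times above the highest BT-named library.

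The others of the 10 were IL22RA2, a soluble receptor that captures interleukin 22 (-2.55), FHOD3, a formin that assembles actin filaments (-2.38), KCNK12, a potassium channel subunit (-2.30), RAPGEF5, an activator of Rap GTPases (-2.22), KIAA1217 (-2.15) and PDE8B, a phosphodiesterase that degrades cAMP (-2.11). Within 5 kb of a gene start the deepest loss in a gene with a symbol was in SLC2A5, the fructose transporter, with 161 and 134 against 40.1 and 45.2 (-1.76 ± 0.17 SE). In the ranges beyond 5 kb the deepest reached from -2.16 in RSPO2 to -2.81 in RORB. The range within 5 kb held the fewest members, and single extremes do not compare ranges of unequal size. These losses were chosen in the same way as the gains.

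**Figure D4:**
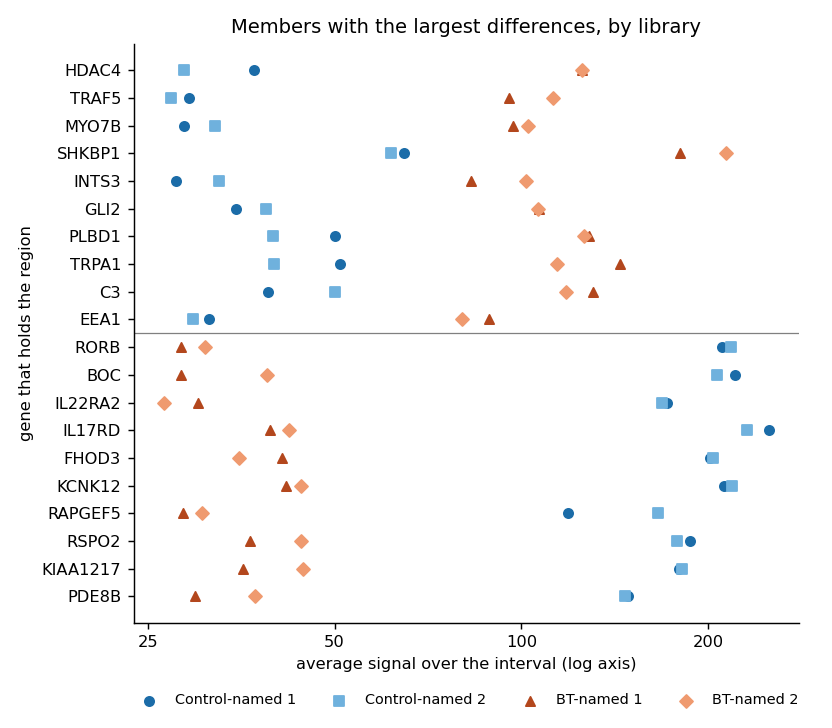
Average signal (x axis, log scale, authors' signal units) in each of the 4 libraries for the 10 members with the largest gain (upper) and the 10 with the largest loss (lower), 1 region per gene and without LOC names. In each region the libraries of a pair sat together. The groups did not overlap by the choice of the regions, as in HDAC4 (28.7 to 37.1 against 125.1 to 125.4) and RORB (210 to 218 against 28.3 to 30.9).

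The tallest members named here had smaller log2 differences than the gains and losses above, which were chosen by their difference. As deposited, the difference was negative in each of them except the region in RCBTB1. The tallest of all lay in RCBTB1, 24.9 kb into the gene (chr12:19225633-19226366), with 1687 and 1645 in the Control-named pair and 2011 and 1969 in the BT-named pair. The log2 difference was 0.26 ± 0.06 (SE, limma adjusted p = 0.000131) as deposited and 0.62 after median centring (limma adjusted p = 3.3e-10). Quantile normalization gives regions of equal rank the same value in every library. It set the difference of this region to 0.00, so the region held the same rank in each library. The rule could then not call it whatever the size of its difference, and nothing is concluded from the missing call. BACH2, a transcription factor of the MAF-binding family, held the next among genes with a symbol, which was lower, at 638 and 714 against 454 and 425 (-0.62 ± 0.09 SE, limma adjusted p = 6.33e-09), although not by peak value (-0.55) or without BT-named replicate 2 (-0.57). The regions in RUSC2, NSMCE2, a SUMO ligase of the SMC5/6 complex, and ELP6, a subunit of Elongator, had log2 differences of -0.18, -0.36 and -0.35 and were not called.

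The members fell into 9793 genes. Of these, 4762 had 1 member, 3009 had at least 3 and 354 had at least 10, and the last held 20.0% of all members. Neighbouring members of a gene lay 12074 bp apart at the median. Members of 1 gene differed from each other nearly as much as members in general, since the SD of the log2 difference was 0.50 within the 354 genes and 0.54 over all members, whereas the means of these genes had an SD of 0.21. Of 881 genes with at least 3 called members, 611 had only lower, 22 only higher and 248 both.

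To compare whole genes, the log2 signal of a gene's members was averaged in each library (gene body level) and tested with limma in the same way over the 3009 genes with at least 3 members. In all, 1005 genes (33.4%) were lower, 114 (3.79%) were higher and the rest were not called. The greatest increase was in C3, whose 5 members included 3 that were higher. Its level was 5.53 and 5.75 in the Control-named pair and 6.44 and 6.45 in the BT-named pair on the log2 scale, without overlap, a difference of 0.80 ± 0.10 (SE, limma adjusted p = 3.15e-10). CSF2RB, the shared chain of the receptors for GM-CSF and interleukins 3 and 5, had 3 members, all higher (0.61 ± 0.10 SE). Next to these stood ANKRD29 (0.69), NKAIN2 (0.59), CCDC60 (0.59), NRCAM, an adhesion molecule of neurons (0.57), APBA2, an adaptor at synapses (0.57), and ANO3 (0.57).

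In most genes with the greatest decreases every member was lower. FBXO32, a ubiquitin ligase of muscle wasting, had a level of 6.96 and 6.98 in the Control-named pair and 5.68 and 5.6 in the BT-named pair, a difference of -1.33 ± 0.09 (SE, limma adjusted p = 3.37e-17), and all 3 of its members were lower. EFNB2, the ligand ephrin-B2 (-1.31), likewise had 3 of 3 members lower. So did WARS2, the mitochondrial tryptophanyl-tRNA synthetase (-1.26), RABEP1, which acts in endosome fusion (-1.26), CPN1, a subunit of carboxypeptidase N (-1.25), and SLC26A7, an anion exchanger (-1.20). FAM13C had 3 of 4 (-1.28). The shared promoter of EFNB2, at -0.34, and that of WARS2, at 0.02, were not called.

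Gene body and promoter were called together in few genes. Of 1860 genes with both a gene body level and a shared promoter region, the median log2 difference was -0.46 for the body and -0.16 for the promoter, and the body lay below the promoter in 1377 (74.0%). Across these genes the differences correlated weakly (Pearson's r 0.13, Spearman's rho 0.11, as a description over 1860 genes measured in the same libraries). Over all 1860 genes the promoter was lower in 135 (7.26%) and higher in 59 (3.17%). Where the body was lower (656 genes), the promoter was lower in 66 (10.1%), higher in 8 (1.22%) and not called in 582. Where the body was higher (35 genes), the promoter was higher in 6 and lower in 1.

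The genes with the most members differed among themselves. MACF1, which links actin to microtubules, and PDE4D, a phosphodiesterase that degrades cAMP, had 33 members each, ADARB1 and NAV2 32, FHOD3 and the uncharacterized LOC615936 30, SYN3 29, and FOXP1, LPP and MACROD2 27. Of these 10 gene bodies, FHOD3, LOC615936 (-0.88), FOXP1, a forkhead transcription factor (-0.69), and LPP, a focal adhesion protein (-0.65), were lower. LPP lost its call without BT-named replicate 2 (-0.62). ADARB1 was higher, and the other 5 were not called. FOXP1 also had 14 of 27 members lower and none higher, 11 further gene body regions listed only by Control-named libraries and none only by BT-named libraries, and a lower promoter (-0.94 ± 0.19 SE, limma adjusted p = 1.36e-05).

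ADARB1, which edits adenosine to inosine in RNA, had 18 of 32 members higher and 1 lower. Its level was 6.81 and 6.78 in the Control-named pair and 7.03 and 7.17 in the BT-named pair, a difference of 0.31 ± 0.10 (SE, limma adjusted p = 0.00457). Without BT-named replicate 2 the level differed by 0.23 and the call was lost. The 25 members from 12.5 to 166.8 kb all had a log2 difference above 0, up to 0.90, with medians of 97.2 and 82.7 in the Control-named pair and 128 and 148 in the BT-named pair. The 7 members from 177.9 to 221.9 kb all had a difference below 0 as deposited, from -0.90 to -0.21, with medians of 133 and 153 against 100.4 and 110.5. Median centring raises every difference by the same amount, and those of the 7 nearest to 0 then lay above it. The boundary was placed after the values were seen, and neighbouring regions are not independent. The promoter of ADARB1, at -0.14, was not called.

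FHOD3 showed no such switch of sign along its length. As deposited, all but 2 of its 30 members had a log2 difference below 0, and the 14 lower members were spread from 10.8 to 518 kb. After median centring more than these 2 lay above 0. Its level was 6.62 and 6.75 in the Control-named pair and 5.91 and 5.90 in the BT-named pair, a difference of -0.78 ± 0.09 (SE, limma adjusted p = 1.00e-10). PDE4D was mixed, with 4 members higher between 721 and 1372 kb and 7 lower between 139 and 1537 kb. The lower ones included a region at 1003 kb, with 123 and 132 in the Control-named pair and 32.8 and 28.6 in the BT-named pair. The level of PDE4D differed by -0.38 ± 0.09 as deposited and by -0.02 after median centring, and it was not called. PDE4D also held 18 gene body regions listed only by Control-named libraries and 3 only by BT-named libraries.

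**Figure D5:**
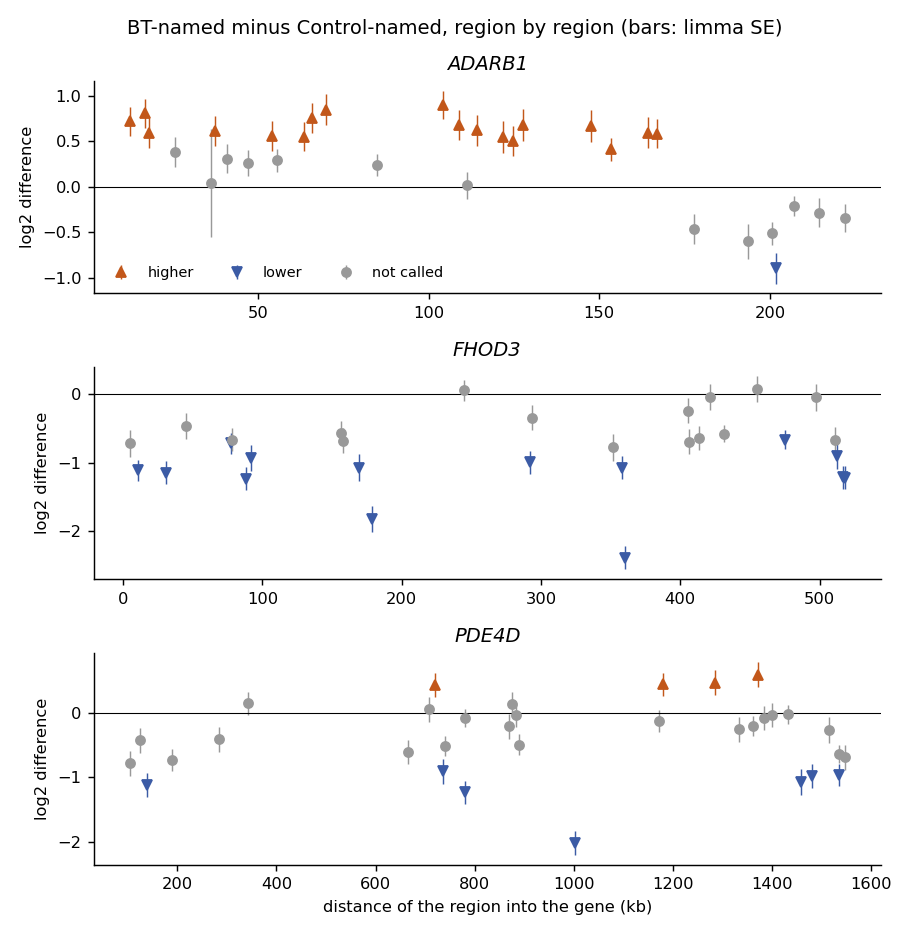
Log2 difference of average signal, BT-named minus Control-named, with the limma SE as bars (y axis), for each member in ADARB1, FHOD3 and PDE4D by distance into the gene (x axis, kb). Values are as deposited. In ADARB1 the 25 members up to 166.8 kb lay above 0 and the 7 beyond lay below 0, and in FHOD3 28 of 30 lay below 0. PDE4D held calls of both directions.

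Gene lists for this tissue and treatment were described by counts and medians. Over all members 26.6% were lower and 5.90% higher, with a median log2 difference of -0.36. These values are over all heights, and the lists were not matched to the members in height. Among members, 7.34% were lower in the lowest of the 4 height classes and 38.0% in the highest (medians -0.12 and -0.53). The part of height in the values of the lists was not tested. The transcription factors of stratified epithelium lay below the members' median. They had 39 members in 9 genes, of which 21 (53.8%) were lower and 0 were higher, with a median of -0.78. At gene body level 5 of the 6 tested genes were lower: KLF5, a factor of proliferating epithelium (-1.08 ± 0.09 SE, 3 of 3 members lower), EHF (-0.84), GRHL1 (-0.83), RUNX1 (-0.80, 7 of 12 members) and TP63, the master factor of stratified epithelia (-0.78, 4 of 7 members). GRHL2, at -0.45, was not called. No shared promoter region was listed for KLF5, EHF, RUNX1 or TP63.

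The next 3 lists hold genes that join cells to each other and to the matrix beneath. Keratins and desmosomes had 21 members, 4 lower (19.0%) and 0 higher (median -0.46), with PKP2, a desmosomal plakophilin (-0.74), and PPL, periplakin (-0.60), lower as genes. Adherens and tight junctions had 112 members, 21 lower (18.8%) and 4 higher (median -0.35), and of 14 genes tested PARD6B, a polarity protein (-0.87), PVRL1, nectin 1 (-0.74), and MAGI3 (-0.59) were lower. Among 108 members of integrins, laminins and hemidesmosomes 32 (29.6%) were lower and 0 higher (median -0.53). There ITGB5, an integrin chain that binds vitronectin (-0.96 ± 0.10 SE), had 7 of 7 members lower, and ITGA6, the integrin chain of hemidesmosomes (-0.77), had 3 of 5. PPL lost its call without Control-named replicate 2 (-0.50) or BT-named replicate 1 (-0.57), and MAGI3 without Control-named replicate 1 (-0.57) or either BT-named replicate (-0.61 and -0.58).

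Actin filament and focal adhesion genes had the most members of any list, 271, with 96 lower (35.4%), 3 higher and a median of -0.55. Of 23 genes tested 11 were lower and 0 higher, and 7 were lower without BT-named replicate 2. ACTN4, an actin crosslinker (-0.90 ± 0.10 SE, 7 of 10 members lower), FHOD3 and ACTN1 (-0.68) were among them, while MYO1E (-0.35) was not called. TNS3 (-0.57) lost its call without Control-named replicate 2 (-0.47) or either BT-named replicate (-0.59 and -0.55), and PDLIM5 (-0.61) without Control-named replicate 1 (-0.61) or BT-named replicate 2 (-0.59).

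In TGF-beta, BMP and SMAD signalling 52 of 120 members (43.3%) were lower and 2 higher (median -0.57), with 9 of 17 genes lower. These included SMAD7, an inhibitor of the pathway (-0.96 ± 0.10 SE, 4 of 5 members), TGFBR3, a co-receptor (-0.78), BMPR1B, a receptor (-0.77), and SMAD3, which carries the signal to the nucleus (-0.75, 9 of 13 members). TGFBR2, the type II receptor, at -0.13, was not called, with 1 of 5 members higher. In YAP, TAZ and TEAD 30 of 85 members (35.3%) were lower and 2 higher (median -0.58), and 8 of 12 genes were lower. Among these were TEAD3, a DNA-binding partner (-1.05), WWTR1, which encodes TAZ (-0.87), and VGLL4, a competitor of YAP and TAZ (-0.81). Without BT-named replicate 2, 5 of the 12 were lower, with AMOTL1 (-0.58), TEAD1 (-0.59) and VGLL3 (-0.56) no longer called. TEAD4, at -0.11, was not called.

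In the EGF receptor and MAP kinase list 21 of 62 members (33.9%) were lower and 1 higher (median -0.54). TGFA, a ligand of the receptor (-0.91 ± 0.09 SE, 4 of 5 members), and EGFR itself (-0.62, 6 of 15 members, with a lower promoter at -0.87) were lower, while SPRED2 (-0.29) was not called. In Wnt and Notch 35 of 98 members (35.7%) were lower and 3 higher (median -0.59; 0 higher without Control-named replicate 1 or either BT-named replicate), with TLE4, a corepressor (-1.18 ± 0.10 SE), MAML2, a Notch coactivator (-0.67, 10 of 25 members), and NOTCH2 (-0.65) lower and TCF7L2 (-0.50) not called. AP-1, MAF and stress factors had 10 of 30 members (33.3%) lower and 0 higher (median -0.38), and BACH1, a repressor (-0.70), was the 1 gene of 3 tested that was lower. Without BT-named replicate 2, EGFR (-0.59) and BACH1 (-0.59) lost their calls.

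Butyrate acts on histone deacetylases and is itself a fatty acid that these cells use. Histone deacetylases, acetyltransferases and corepressors had 74 members, 24 lower and 2 higher (median -0.52), the latter in HDAC4 and NCOR1. At gene body level KAT6B, an acetyltransferase (-0.64 ± 0.09 SE), and HDAC9 (-0.61) were lower and HDAC4 (-0.26) and HDAC5 (-0.53) were not called. Short-chain fatty acid transport and fatty acid oxidation had 68 members, 16 lower and 4 higher (median -0.36, the same as all members). PPARG, a nuclear receptor of fatty acids (-0.96 ± 0.10 SE), and ACSL1, an acyl-CoA synthetase (-0.66), were lower, while SLC4A4, a bicarbonate transporter (-0.43), PPARD (-0.17, with 2 members higher and 1 lower) and BDH1, a ketone body enzyme (0.01), were not called. Without BT-named replicate 2 the calls of KAT6B (-0.60), HDAC9 (-0.56) and ACSL1 (-0.73) were lost, and that of ACSL1 also without Control-named replicate 2 (-0.40) and without BT-named replicate 1 (-0.60).

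Of 212 members in cAMP and calcium signalling 67 were lower and 10 higher (median -0.43; 4 to 7 higher without any 1 library), with CAMK1D, a calmodulin-dependent kinase (-0.70, 12 of 24 members), and PRKCA, protein kinase C alpha (-0.69, 6 of 12 members), lower. Cell cycle and DNA replication genes had 65 members in 16 of 32 genes, with 13 lower and 2 higher (median -0.38). Fewer were lower without Control-named replicate 1. MCM6, a subunit of the replicative helicase (-0.63), was the 1 gene of 6 tested that was lower, and CDK6 (-0.53) and CCND3 (-0.18) were not called. MCM6 kept its difference but not its call without Control-named replicate 1 (-0.64) or either BT-named replicate (-0.62 and -0.64).

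Neuronal adhesion and synapse genes, which the cells are not known for, lay on the other side of the members' median. Of 86 members 11 (12.8%) were higher and 7 (8.14%) lower, with a median of -0.04. Higher calls still outnumbered lower ones with either Control-named replicate left out. With either BT-named replicate left out, lower calls outnumbered higher ones. At gene body level 2 of the 12 tested genes were higher and 0 lower, against 3.79% and 33.4% of all 3009 genes. GRID1, a glutamate receptor subunit (0.23 ± 0.11 SE, limma adjusted p = 0.0455 in the least favourable scaling), was 1 of the 2. CNTNAP2 (-0.03, 3 members higher and 1 lower) and NCAM1 (-0.50) were not called. The call of GRID1 was lost by peak value (0.26), without Control-named replicate 1 (0.03) and without either BT-named replicate (0.25 and 0.22).

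Markers of other cells showed mixed values. In the fibroblast and mesenchyme list 13 of 49 members were lower and 5 higher (median -0.33), with FBN1, fibrillin (-0.86), and PRRX1 (-0.68) lower and FN1, fibronectin (0.47 ± 0.10 SE, 3 of 4 members), higher. PRRX1 lost its call without BT-named replicate 2 (-0.63). Smooth muscle markers had 2 of 20 members lower and 2 higher (median -0.12), endothelial markers 8 of 37 and 3 (median -0.30), immune cell markers 1 of 9 and 1 (median -0.04) and simple epithelium markers 1 of 4 and 1. The summed average signal over the members of a list was 4898 and 5196 against 4048 and 3958 for fibroblasts, 2178 and 2361 against 1771 and 1779 for smooth muscle, 3276 and 3599 against 2638 and 2758 for endothelium and 558 and 659 against 588 and 592 for immune cells. Their part in the differences above was not tested.

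Members occurred on all 29 autosomes and X. The 424 members on chromosome X had the lowest median of the mean average signal, 54.1 against 63.3 to 80.1 on the autosomes, and the smallest share of lower calls, 18.4% against 21.2% to 31.3%. The median log2 difference of a chromosome ran from -0.46 on chromosome 14 to -0.24 on chromosome 18. The calf was male, and the part of its single X in these values was not tested.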

How the data were processed

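ATAC-seq of REPC was analysed in 4 libraries. Per the labels, paired reads of 42 nt were trimmed with Trim Galore 0.4.1, aligned with BWA to UMD3.1, and peaks were called with MACS2. The deposited table gives, for each interval, the authors' signal at the summit (peak value) and mean signal over the interval (average value), with nearby genes and CpG islands. Its normalization between libraries was not stated in the sources read. Columns of other samples numbered 0.

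Distances run from the summit to the gene start. In 532 members with more than 1 interval of a library, the highest value was used. Log2(value + 1) of all 65892 shared regions was fitted in R 4.3.3 with limma 3.58.1 (two-sided, with a trended and robust variance) and adjusted by Benjamini-Hochberg, as deposited, median-centred and quantile-normalized. Differences are on that scale, which understates changes of low values. Single per-library values were compared by an exact permutation test (n = 2 per group). Gene names are the authors', and 7907 of 9793 (80.7%) matched a RefSeq symbol or synonym (ARS-UCD2.0, names only). Members held by 2 or more genes numbered 905, and 40 had names turned into dates. No sequence of UMD3.1 was used.

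Named regions were the 10 largest gains and losses called under all 3 scalings without overlap, 1 per gene and without LOC names, the largest per distance range, and the 5 tallest. Named genes were the 10 with most members, the 8 most increased and decreased, and list genes by size of change or as needed to describe a count. The members and the 20 lists were chosen with earlier results of these data known. Alternatives tried were peak value, a pseudocount of 10, each scaling alone, plain variance, a filter on low signal, interval handling, annotation from the tallest interval, genes with 5 or more members, regions held by 1 gene, a replicate block and leaving out each library. Some genes that meet these rules are not reported here.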

Additional observations from a re-analysis of the deposited data

How the results depend on the processing

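Main values were 1482 members higher and 6691 lower, a median log2 difference of -0.36, 114 genes higher and 1005 lower, near minus far signal 0.07, and members minus CpG island promoters -0.29, minus promoters without a CpG island -0.14 and minus intergenic regions -0.09. By peak value the median was -0.43, near minus far 0.11, and the class contrasts -0.32, -0.19 and -0.10. With a pseudocount of 10, near minus far was 0.0475 and the first 2 contrasts -0.25 and -0.12. Without the 25% of shared regions of lowest signal, 929 members and 47 genes were higher, the median was -0.48, near minus far 0.14 and the contrasts -0.35, -0.19 and -0.0521. Among genes with 5 or more members 35 were higher and 607 lower, from fewer genes tested. As deposited alone, 12080 members and 2304 genes were lower. After median centring alone 5847 members and 585 genes were higher and the median was -0.00274. After quantile normalization alone 4457 members and 436 genes were higher, the median was -0.0817, near minus far 0.12, and the contrasts with promoters without a CpG island and intergenic regions -0.18 and -0.0751. The cause of these shifts was not tested, beyond what the construction of each alternative sets.

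Leaving out 1 library gave 812 to 1581 members higher, 5252 to 6024 lower, medians of -0.43 to -0.31, 62 to 160 genes higher and 674 to 942 lower. The fewest higher calls came without BT-named replicate 2 (812 members, 62 genes) and without BT-named replicate 1 (931 and 69). The near minus far signal and the class contrasts kept their sign in all these fits. Same-numbered libraries did not deviate together in signal (r = 0.03 over all shared regions, 0.02 over the members). These correlations cannot tell whether same-numbered libraries were prepared together. With a replicate block 1571 members were higher and 7017 lower, and 117 and 967 genes.

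Of the 28 named regions, RUSC2 turned to 0.18 and was called higher after median centring alone, and BACH2 lost its call by peak value (-0.55), with plain variance (-0.62) and without BT-named replicate 2 (-0.57). The named gene bodies lost their call in 75 of 1454 combinations of gene and alternative and none changed sign with a call. Most of these losses came from leaving out a library. The combinations include each scaling alone, where no call can be lost because the rule already requires every scaling. They also include genes not called at the start, so the share does not measure how stable the calls are. Signal near the listing limit and the unknown read depth limit what low regions can show.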
